A study of Mus musculus with 2 samples.

Results

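The small leucine-rich proteoglycans (SLRPs) were read in cultured mouse brain pericytes (PCs), the contractile cells that wrap capillaries. The 9 genes were *Dcn* (decorin), *Lum* (lumican), *Bgn* (biglycan), *Ogn* (osteoglycin), *Fmod* (fibromodulin), *Prelp*, *Aspn* (asporin), *Omd* (osteomodulin) and *Podn* (podocan). They were chosen by symbol from the SLRP family, with earlier results of these data known. All 9 were among the 31053 genes listed in the files. The cultures came from brains of wild type female C57BL/6N mice aged 6 to 8 weeks, with cells of 6 mice pooled per isolation, and were sequenced with the 10x 3′ kit as single cells, in a PC5 library made at passage 5 and a PC20 library made at passage 20. No gene was altered and no drug was given, and the cells grew on plates coated with collagen I. By the methods of the study the PCs at each passage came from a different isolation, while the deposited design names only 1, so passage and isolation cannot be told apart.

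SLRPs are secreted proteins of the extracellular matrix whose core is built of leucine-rich repeats. Decorin and biglycan carry chondroitin or dermatan sulphate chains, lumican and fibromodulin carry keratan sulphate, and asporin, a close relative of decorin, usually carries none. They bind collagen and shape its fibrils, and decorin and biglycan also bind growth factors such as TGF-β. In the brain they are best known from fibroblasts of the meninges and vessel walls, and *Dcn* and *Lum* were among the fibroblast markers of the study, not its PC markers.

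Cells were kept when over 1000 genes were seen and mitochondrial genes took under 20% of their UMIs (unique molecular identifiers, each tagging 1 captured RNA molecule). They numbered 9950 of 10629 barcodes in PC5 and 4749 of 4884 in PC20, with medians of 21700 and 33424 UMIs per cell, and 20 barcode sequences occurred in both libraries. A level is given in CPM (counts scaled to a common total), where the UMIs of a gene over kept cells are divided by the library total and multiplied by 1000000. A 3′ UMI marks the end of a transcript, so CPM was not divided by gene length. The log2 ratio is CPM in PC5 over CPM in PC20, positive when higher in PC5. Values in parentheses after a level, ratio or share are 95% intervals, exact Poisson, conditional binomial and Clopper-Pearson respectively, which reflect counting error alone. Each passage had 1 library, so there was no replicate check and no test between passages. Cells of a library were pooled as they came, so fewer cells with a gene and less RNA per cell are told apart only through the shares of cells given below.

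The labelled cell type was checked against its markers. Of 10 PC markers, *Pdgfrb*, by which the study identified its cultured PCs, had a UMI in 54.2% of PC5 and 16.5% of PC20 cells. *Rgs5* gave 405 UMIs in PC5 against 0 in PC20, and *Anpep* was seen in 4.05% and 9.43% of cells. *Kcnj8*, *Vtn*, *Higd1b* and *Abcc9* had 20 UMIs or fewer in each library, and the 10 markers summed to 67.2 CPM in PC5 against 10.6 CPM in PC20. The 9 fibroblast markers other than SLRPs summed to 4076 CPM in PC5 against 108 CPM in PC20. Of the PC5 sum *Col1a2*, *Col3a1* and *Col1a1* made up 1737, 1158 and 576 CPM, and of the PC20 sum *Col3a1* made up 101 CPM. *Krt18*, a keratin of simple epithelia, had a UMI in 0.261% of PC5 and 99.6% of PC20 cells, and *Krt8* in 0.0402% and 59.5%. The other epithelial markers, *Epcam* and *Cdh1*, had 51 UMIs or fewer in each library. All 4 were more than 2-fold higher in PC20, beside 19.8% of the 18294 genes with more than 3 UMIs in either library. The libraries are therefore called PC5 and PC20 by their labels only, and the part of these differences in the SLRP values was not tested.

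The 9 genes lie in few places of the genome (GENCODE M21, GRCm38, the build of the files). *Dcn* (ENSMUSG00000019929, chr10:97479609-97518143) and *Lum* (ENSMUSG00000036446, chr10:97565128-97572703) are neighbours on the plus strand, 47.0 kb apart. *Aspn* (ENSMUSG00000021388, chr13:49544443-49567565), *Omd* (ENSMUSG00000048368, chr13:49582462-49592822) and *Ogn* (ENSMUSG00000021390, chr13:49608046-49624501) follow each other on the plus strand with gaps of 14.9 kb and 15.2 kb, all inside the span of *Cenpp* on the opposite strand, which shares 7 exonic bases with *Aspn* and 0 with *Omd* and *Ogn*. *Prelp* (ENSMUSG00000041577, chr1:133910304-133921414, minus strand) and *Fmod* (ENSMUSG00000041559, chr1:134037254-134048277, plus strand) lie 116 kb apart, and no protein-coding gene lies wholly within any of these gaps. *Prelp* shares 350 exonic bases with the antisense gene *Gm15851*, and since the sources used here do not state how strand was counted, reads there cannot be told apart. *Bgn* (ENSMUSG00000031375, chrX:73483602-73495933, plus strand) lies apart from the others. *Podn* (ENSMUSG00000028600, chr4:108014791-108096445, minus strand) overlaps *Scp2* on the same strand, with 0 shared exonic bases.

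The 250 bases before the RefSeq start of the 3 genes that led the family in PC20, of which *Bgn* also led it in PC5, are shown because their levels differed in opposite directions. The sequences are from RefSeq on GRCm38.p6, whose table had entries for 7 of the 9 genes, and *Dcn* and *Lum* had none. Each is written 5′ to 3′ on the strand of its gene, from chrX:73483351-73483600 for *Bgn*, chr13:49607765-49608014 for *Ogn* and chr1:133921402-133921651 (minus strand) for *Prelp*. Capitals mark matches on either strand to the TATA box (TATAAA), the CCAAT box (CCAAT), the GC box (GGGCGG), the AP-1 site (TGACTCA), the E-box (CACGTG), the TEAD core (GGAATG) or a CT element (CCCTCCC), and neighbouring matches can overlap.
Bgn: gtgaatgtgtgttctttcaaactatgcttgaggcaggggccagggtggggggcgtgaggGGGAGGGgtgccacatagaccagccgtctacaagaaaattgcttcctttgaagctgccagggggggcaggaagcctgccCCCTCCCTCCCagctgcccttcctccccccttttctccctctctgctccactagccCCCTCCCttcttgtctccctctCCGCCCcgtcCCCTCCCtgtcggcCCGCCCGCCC
Ogn: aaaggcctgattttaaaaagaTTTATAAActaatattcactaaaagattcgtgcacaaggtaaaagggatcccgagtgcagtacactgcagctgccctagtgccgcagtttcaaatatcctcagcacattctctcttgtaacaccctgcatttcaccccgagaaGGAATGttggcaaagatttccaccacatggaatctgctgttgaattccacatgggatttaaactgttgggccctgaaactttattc
Prelp: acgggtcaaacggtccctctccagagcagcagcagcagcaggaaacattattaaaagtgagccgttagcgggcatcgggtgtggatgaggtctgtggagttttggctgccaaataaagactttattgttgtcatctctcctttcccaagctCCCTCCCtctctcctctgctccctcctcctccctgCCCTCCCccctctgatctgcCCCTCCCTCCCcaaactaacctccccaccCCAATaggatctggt
The *Bgn* window held 3 GC boxes and 5 CT elements, and the *Prelp* window 4 CT elements and 1 CCAAT box. The *Ogn* window held neither of the C-rich motifs, but a TATA box on each strand of the same stretch, 229 and 227 bases before the start, and 1 TEAD core. G and C made up 64.4% of the *Bgn*, 55.6% of the *Prelp* and 42.0% of the *Ogn* window, beside a median of 52.4% over all 32851 windows. Of all windows of this length 32.7% held a GC box, 19.7% a CT element, 33.8% a CCAAT box, 12.4% a TATA box, 12.6% the TEAD core, 6.02% the E-box and 4.46% the AP-1 site, and these last 2 had no match in the 3 windows shown. The matches describe the letters and are not sites shown to be bound.

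The SLRPs of PC5 were mostly *Bgn*, and those of PC20 mostly *Ogn*. Summed over the 9 genes, PC5 stood at 539 CPM (535 to 542), against 91.1 CPM (89.7 to 92.4) for PC20. *Bgn* made up 87.8% of the SLRP UMIs in PC5 and *Dcn* 9.52%. In PC20 *Ogn* made up 65.7%, *Bgn* 19.8% and *Prelp* 13.4%, so the leading gene was a different one at each passage. By the 2-fold threshold 5 of the 9 genes (*Dcn*, *Lum*, *Bgn*, *Fmod* and *Podn*) were higher in PC5 and 2 (*Ogn* and *Prelp*) higher in PC20, with *Aspn* and *Omd* within it. For comparison, 17.9% of the 10504 genes with a UMI in at least 10% of cells of either library were more than 2-fold higher in PC5 and 19.1% were more than 2-fold higher in PC20, with a median log2 ratio of -0.03 over these genes. Only *Dcn*, *Bgn*, *Ogn* and *Prelp* reached that 10% themselves, and each of them only in the library where it was high, so nothing is read from how many of these 4 passed. Without that filter, 27.4% of the 18294 genes with more than 3 UMIs in either library were more than 2-fold higher in PC5 and 19.8% in PC20.

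**Figure D1:**
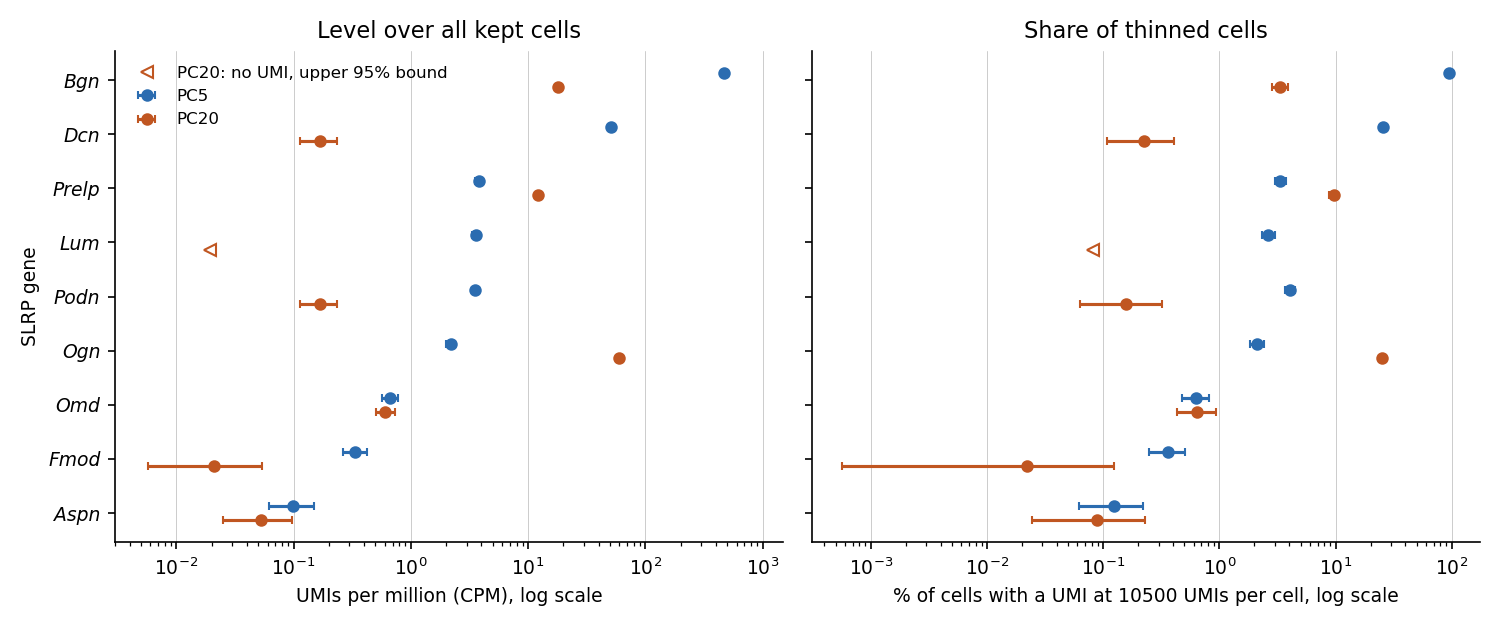
Levels (left, CPM, log axis) and shares of cells with a UMI after thinning every cell to 10500 UMIs (right, %, log axis) of the 9 SLRP genes in PC5 (blue) and PC20 (orange), with 95% counting intervals and an open triangle at the upper bound for *Lum*, which had 0 UMIs in PC20. The points of *Bgn*, *Dcn*, *Lum*, *Podn* and *Fmod* lie to the right in PC5, those of *Ogn* and *Prelp* to the right in PC20, and those of *Omd* and *Aspn* overlap in their intervals.

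Among the SLRPs with chondroitin or dermatan sulphate chains, *Bgn* was read 105516 times in PC5, or 473 CPM (470 to 476), against 3445 UMIs in PC20, or 18.0 CPM (17.4 to 18.6). The PC5 level was thus 26.2-fold higher, a log2 ratio of 4.71 (4.66 to 4.76). By UMIs *Bgn* ranked 245 among all genes of PC5 and 5646 in PC20. For *Dcn* PC5 gave 11434 UMIs, or 51.3 CPM (50.3 to 52.2), and PC20 gave 32 UMIs, or 0.167 CPM (0.115 to 0.236). At 306-fold, a log2 ratio of 8.26 (7.76 to 8.81), it had the largest ratio of the SLRPs with UMIs in both libraries. *Aspn*, their relative without such chains, was near the limit of detection, with 22 UMIs at passage 5 against 10 at passage 20, and its log2 ratio of 0.91 (-0.22 to 2.16) had an interval that holds 0.

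Of the SLRPs that carry keratan sulphate or belong to the same branch of the family, *Lum*, which spaces collagen fibrils in the cornea, was read 796 times in PC5, or 3.57 CPM (3.33 to 3.83). No *Lum* UMI was found in PC20, and 0 of 4749 cells allows a share of cells with a UMI of up to 0.0776%. Set against a floor of 3 UMIs in PC20, *Lum* was 227-fold higher in PC5, a log2 ratio of 7.83. That value is not a lower limit, as the interval from counting error began at a log2 ratio of 7.53. *Fmod*, which guides the crosslinking of tendon fibrils, gave 75 UMIs in PC5 against 4 in PC20, for a log2 ratio of 4.01 (2.59 to 5.92). *Prelp*, which anchors basement membranes to collagen, went the other way, with 848 UMIs in PC5, or 3.80 CPM (3.55 to 4.07), against 2333 UMIs in PC20, or 12.2 CPM (11.7 to 12.7). It was 3.21-fold higher in PC20, a log2 ratio of -1.68 (-1.80 to -1.57), whereas its neighbour *Fmod* was higher in PC5. *Omd*, best known from bone matrix, gave 149 UMIs in PC5 against 116 in PC20, and its log2 ratio of 0.14 (-0.22 to 0.50) did not differ from 0 beyond counting error, with a 2-fold difference outside the interval.

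*Ogn*, also called mimecan, was read 488 times in PC5, or 2.19 CPM (2.00 to 2.39), against 11433 times in PC20, or 59.8 CPM (58.7 to 60.9). It was 27.3-fold higher in PC20, a log2 ratio of -4.77 (-4.91 to -4.64), close in size and opposite in sign to that of *Bgn*. The 3 neighbours on chromosome 13 thus had ratios of a different kind, *Ogn* far higher in PC20 and *Omd* and *Aspn* within 2-fold. *Podn*, a SLRP with more repeats than the others that was described in vessel walls, gave 795 UMIs in PC5, or 3.56 CPM (3.32 to 3.82), against 32 in PC20, or 0.167 CPM (0.115 to 0.236), for a log2 ratio of 4.41 (3.90 to 4.97).

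Within PC5 the order of levels was *Bgn*, *Dcn*, then *Prelp*, *Lum* and *Podn* with overlapping intervals, then *Ogn*, *Omd* at 0.668 CPM, *Fmod* at 0.336 CPM and *Aspn* at 0.0986 CPM. Within PC20 it was *Ogn*, *Bgn*, *Prelp*, *Omd* at 0.607 CPM, *Dcn* and *Podn* at the same count, then *Aspn* at 0.0523 CPM and *Fmod* at 0.0209 CPM with overlapping intervals, and *Lum* at 0. In each library, then, a few SLRPs were above 10 CPM and the rest below 5 CPM.

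The 9 other genes of the family, listed beside the members, included 7 with more than 3 UMIs in either library. Of these 3 were more than 2-fold higher in PC5 and 3 in PC20, beside 27.4% and 19.8% of the 18294 genes so filtered. *Tsku*, a secreted SLRP that binds signalling proteins, was the most abundant, with 23.1 CPM in PC5 against 16.8 CPM in PC20, for a log2 ratio of 0.46 (0.40 to 0.52). *Optc*, which lies 2.30 kb from *Prelp* on the same strand, gave 36 UMIs in PC5 against 688 in PC20, for a log2 ratio of -4.48 (-5.01 to -4.00). *Podnl1*, the relative of *Podn*, had 76 and 483 UMIs and a log2 ratio of -2.89 (-3.26 to -2.54), opposite in sign to *Podn*. *Chadl* had 106 and 201 UMIs, a log2 ratio of -1.15 (-1.50 to -0.80). *Nyx*, known from the retina, gave 108 UMIs in PC5 against 1 in PC20, for a log2 ratio of 6.53 (4.02 to 11.8), and *Ecm2*, the neighbour of *Aspn*, 56 against 17, for a log2 ratio between 0.69 and 2.37. The neighbours of *Lum*, *Kera* and *Epyc*, had 2 and 11 UMIs in PC5 and 0 in PC20.

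The share of cells with a UMI did not always follow the order of levels, as *Bgn* had a higher level than *Prelp* in PC20 but was seen in fewer cells. Because PC20 cells were deeper, each cell was also thinned to 10500 UMIs, which left 8847 PC5 and 4474 PC20 cells and dropped 1103 and 275 shallower ones. *Bgn* had a UMI in 95.9% of PC5 cells (94.97% thinned) and in 5.24% of PC20 cells (3.33% thinned). *Dcn* had a UMI in 36.3% of PC5 cells (25.7% thinned) and in 0.611% of PC20 cells (0.224% thinned). *Ogn* had a UMI in 3.99% of PC5 cells (2.13% thinned) and in 43.8% of PC20 cells (25.1% thinned), and *Prelp* in 5.40% (3.36% thinned) and 26.9% (9.61% thinned). So *Ogn* in PC20 reached about as many cells as *Dcn* in PC5, and neither came near *Bgn* in PC5. *Lum*, *Podn* and *Fmod* had a UMI in 2.63%, 4.05% and 0.362% of thinned PC5 cells, and *Omd* in 0.633% of PC5 and 0.648% of PC20. As a measure of free RNA, 10 genes of other lineages were seen in at most 0.0678% of thinned PC5 and 0.0224% of thinned PC20 cells each, a level that *Fmod* in PC20, at 0.0224%, did not exceed. Of the thinned PC5 cells 3.58% had no SLRP UMI and 64.6% had UMIs of exactly 1 of the 9 genes, while 67.7% of the thinned PC20 cells had none and 26.1% had 1.

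*Bgn* was spread over nearly all cells in PC5 and held by very few in PC20. A PC5 cell had a median of 9 *Bgn* UMIs, 10% of cells had 21 or more, and the highest count was 81. In PC20 only 249 of 4749 cells had any *Bgn* UMI, yet these had a mean of 13.8 UMIs and up to 104. The 98 PC20 cells with 10 or more *Bgn* UMIs, 2.06% of all, held 93.4% of the *Bgn* UMIs of that library. The variance over the mean of thinned counts was 12.2 for *Bgn* in PC20, above 99.8% of the 7291 genes with a UMI in at least 10% of thinned cells, whose median was 1.08, and 2.54 in PC5. Among variable genes ranked by Seurat *Bgn* was 2 in PC20 and outside the first 2009 in PC5.

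In those 98 cells the *Bgn* level was 609 CPM, and in the 151 cells with 1 to 9 *Bgn* UMIs it was 24.6 CPM. Both groups were picked by their *Bgn* counts, so these levels follow from the choice and are not set against PC5. The 98 cells were also *Ogn* cells: *Ogn* was at 220 CPM with a UMI in 93.9% of them, against 50.8 CPM and 41.9% in the 4500 cells without *Bgn*. *Omd* was at 3.97 against 0.453 CPM, *Prelp* at 27.6 against 11.1 CPM, and *Dcn* had 6 UMIs in the 98 cells. *Krt18* had a UMI in all 98, at 1486 CPM, and *Col1a2*, which was seen in 98.1% of PC5 cells at 1737 CPM, had 0 UMIs in them. *Col3a1*, at 1158 CPM in PC5, had a UMI in 96 of the 98, at 204 CPM, against 96.6 CPM in PC20 cells without *Bgn*. *Col1a1*, the partner chain of collagen I, had a UMI in 49 of the 98 and in 5.6% of the cells without *Bgn*. Their median depth was 39349 UMIs, against 33024 in cells without *Bgn*. Without these 98 cells the log2 ratio of *Bgn* was 8.59 in place of 4.71, an alternative chosen after the values were seen. It leaves out cells by their *Bgn* count in PC20 only, so a larger ratio was fixed in advance.

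*Dcn* in PC5 and *Ogn* in PC20 were uneven as well. *Dcn* in PC5 had a median of 0 and a maximum of 68 UMIs, and the top 10% of cells held 67.4% of its UMIs. *Ogn* in PC20 had a median of 0 and a maximum of 211 UMIs, and the top 10% of cells held 72.4%. The variance over the mean was 4.96 for *Dcn* and 5.10 for *Ogn*, both above 98% of genes, and the 2 genes ranked 44 in PC5 and 15 in PC20 among variable genes. *Prelp* in PC20 had a variance over the mean of 1.38. *Omd* in both libraries and *Podn* and *Fmod* in PC5 lay between 0.994 and 1.06. Their thinned means were 0.0422 UMIs per cell or less, and counts this sparse lie near 1 largely by their sparsity. The median gene comes from genes in at least 10% of thinned cells, so how evenly these genes were spread is not read from this.

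**Figure D2:**
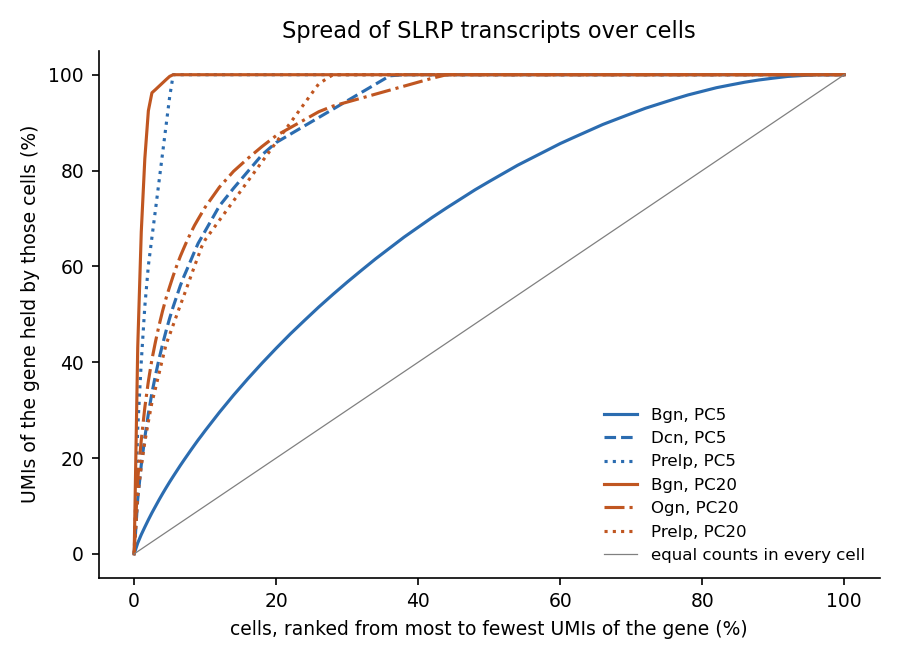
Share of the UMIs of a gene (vertical axis, %) held by the cells with the most UMIs of it (horizontal axis, % of kept cells) for *Bgn*, *Dcn* and *Prelp* in PC5 (blue) and *Bgn*, *Ogn* and *Prelp* in PC20 (orange), with the grey line marking equal counts in every cell. The PC20 curve of *Bgn* reaches 92.5% at 2% of cells, while the PC5 curve of *Bgn* reaches 77.7% at 50% of cells.

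Within each passage cells were clustered alone, with the 9 SLRP genes taken out of the variable genes, which gave 13 clusters of at least 50 cells in each. Clusters are named by number and by their 3 leading genes, and no cell type is assigned. In PC5 *Bgn* was high throughout, from 227 CPM in cluster 10, whose median depth was only 5600 UMIs, to 811 CPM (799 to 824) in cluster 4 (leading genes *Xlr*, *Snhg11* and *Zfp992*). The same cluster 4, with 1054 cells, held 58.7% of all *Prelp* UMIs of PC5, at 23.5 CPM (21.5 to 25.6) against 9.48 CPM or less elsewhere. *Dcn* peaked in cluster 5 (*Trf*, *Mmp3* and *Sparcl1*), at 201 CPM (195 to 208) with a UMI in 61.9% of its 935 cells, and was 6.48 CPM in cluster 10. *Lum* was highest in the same cluster 5, at 10.2 CPM (8.75 to 11.9), and in cluster 1 (*Il11*, *Il33* and *Col5a3*), at 8.84 CPM (7.72 to 10.1), where *Dcn* was second at 81.3 CPM. So the PC5 cluster highest in *Bgn* was also the highest in *Prelp*, and clusters 5 and 1 led in both *Lum* and *Dcn*. Beyond cluster 4 the match of *Bgn* and *Prelp* was uneven. They were at 558 and 0.640 CPM in cluster 6, 530 and 6.68 CPM in cluster 9, and 385 and 9.48 CPM in cluster 12.

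In PC20 the 3 clusters highest in *Ogn* were cluster 6 (*Ptk2b*, *Cox6b2* and *Sult1a1*), at 233 CPM (225 to 241), cluster 8 (*Cdo1*, *Six6* and *Platr3*), at 221 CPM (212 to 231), and cluster 3 (*Elf3*, *Ctla2a* and *Hopx*), at 161 CPM (154 to 168). The *Ogn* level was lowest in cluster 1, at 9.10 CPM (7.98 to 10.3), where 99.7% of cells had a UMI of *Mki67* or *Top2a*. It was 17.4 CPM (15.9 to 18.9) in cluster 2 (*Pif1*, *Neurl1b* and *Fam83d*), where 100% of cells had such a UMI. The *Bgn* UMIs lay mostly in cluster 8, at 219 CPM (210 to 229) and 64.9% of them, and cluster 9 (*Lmod1*, *Ccl9* and *Gpx3*), at 45.7 CPM (42.8 to 48.6) and 28.4%. Most cells of both clusters had none, as a *Bgn* UMI was seen in 39.8% of cluster 8 and 21.4% of cluster 9. *Bgn* was at 10.3 CPM or less in every other cluster. Cluster 9 had a median of 86056 UMIs per cell, the deepest of PC20, and doublets in it were not tested for. A UMI of *Mki67* or *Top2a* was seen in 100% of its cells, yet *Ogn* was at 58.8 CPM (55.6 to 62.1) in it. Of the 98 cells with 10 or more *Bgn* UMIs, 68 were in cluster 8 and 25 in cluster 9. *Prelp* peaked in cluster 6, at 30.9 CPM (28.1 to 33.9), and was at 17.6 CPM (15.4 to 20.1) in cluster 3 and 10.8 CPM (8.87 to 13.0) in cluster 8. Among the 3 clusters highest in *Ogn* the one highest in *Bgn*, cluster 8, was thus the lowest in *Prelp*. In the 98 cells, though, *Prelp* was at 27.6 CPM, against 11.1 CPM in cells without *Bgn*. The level of cluster 8 thus does not stand for its cells with *Bgn*. Cluster 9, second in *Bgn*, was not low in *Prelp*. Its *Prelp* level was 18.7 CPM (16.9 to 20.6), with an interval that overlaps that of cluster 3. *Omd* followed *Ogn*, with 22 to 26 of its 116 UMIs in each of clusters 3, 6 and 8.

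**Figure D3:**
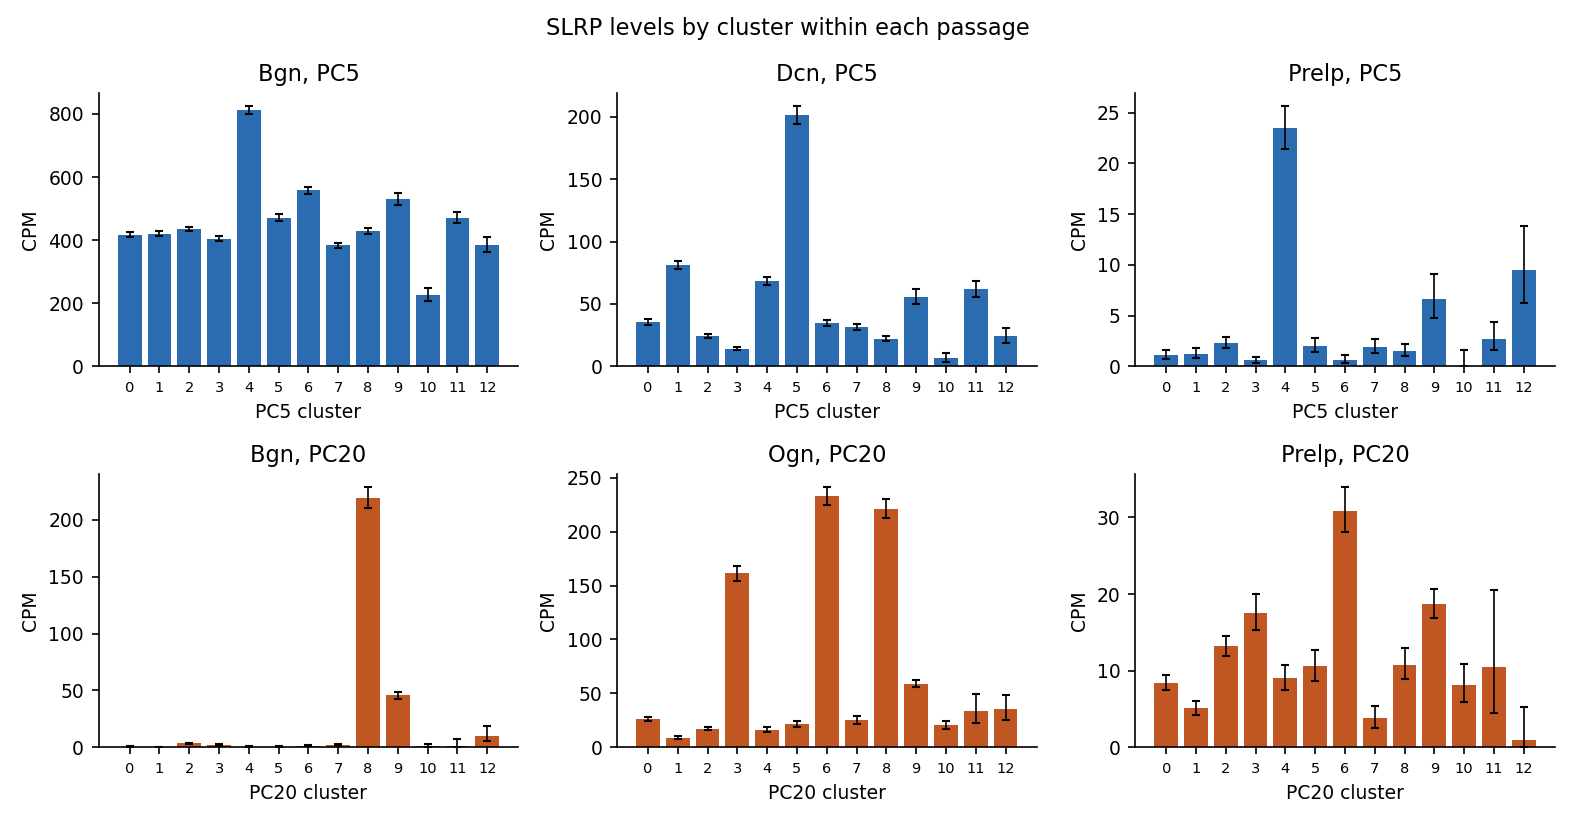
Levels in CPM (bars, linear axes from 0, with 95% Poisson intervals) by cluster of PC5 (upper row: *Bgn*, *Dcn*, *Prelp*) and of PC20 (lower row: *Bgn*, *Ogn*, *Prelp*); cluster numbers of the passages are unrelated. *Bgn* is at 227 CPM or more in every PC5 cluster, and in PC20 it stands above 11 CPM only in clusters 8 and 9.

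Co-expression was read across thinned cells as Pearson's r of log counts scaled to 10000 UMIs, as a description of cells that share a library and a base of equal depth. In PC5 the only SLRP pair with both genes in at least 10% of cells, *Dcn* and *Bgn*, had r of 0.05. Of the 27665641 pairs among all genes at that 10% cut in PC5, 0.488% had an r of at least 0.1. In PC20 only *Ogn* reached 10% of thinned cells, so there was no SLRP pair. Of the pairs among all genes at that cut in PC20, 0.58% had an r of at least 0.1. With genes in at least 1% of cells, 2 of 15 SLRP pairs in PC5 passed 0.1, *Dcn* with *Lum* at r of 0.23 and *Bgn* with *Prelp* at 0.13. The share over all gene pairs at this 1% cut was not computed for either passage, so these counts have no background beside them. The chromosome 10 neighbours *Dcn* and *Lum* were together in 155 cells, where independence would give 59.8. In PC20 2 of 3 pairs passed, *Bgn* with *Ogn* at r of 0.26 and *Ogn* with *Prelp* at 0.16, while *Bgn* with *Prelp* was at 0.05. *Bgn* and *Prelp* were still together in 26 cells of PC20, against 14.3 if independent, and *Ogn* and *Prelp* in 162, against 108. *Bgn* and *Ogn* were together in 100 cells of PC20, against 37.5 if independent; in PC5, where nearly all cells had *Bgn*, their r was -0.0035. The coefficients are weak in sparse counts and carry no test.

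The genes most like a SLRP across thinned cells were read for *Dcn* and *Bgn* in PC5 and *Ogn* in PC20, which reached 10% of those cells. In PC5 those of *Dcn* were *Apod*, a lipid carrier of fibroblasts, with r of 0.39, *Aldh1a2*, the enzyme that makes retinoic acid, with 0.35, and the chemokine *Ccl7* with 0.32. Those of *Bgn* were the matrix genes *Fbln2* with 0.32, *Col1a2* with 0.30 and *Col1a1* with 0.29. In PC20 those of *Ogn* were *Ctla2a*, a protease inhibitor, with 0.46, *Tmem176a* with 0.40 and the actin-binding *Tmsb4x* with 0.40. Each was the highest of the genes seen in at least 10% of thinned cells, 7438 in PC5 and 7290 in PC20.

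The leading SLRPs were lower in cells with a UMI of the proliferation genes *Mki67* or *Top2a*, which made up 35.6% of thinned PC5 and 58.5% of thinned PC20 cells. *Ogn* in PC20 was 90.6 CPM (86.4 to 94.9) in cells without and 36.1 CPM (33.9 to 38.4) in cells with such a UMI. *Dcn* in PC5 was 71.7 CPM (69.6 to 73.9) without and 36.6 CPM (34.5 to 38.7) with one. *Bgn* differed less in PC5, at 506 against 448 CPM, and *Prelp* in PC20, at 12.3 (10.8 to 13.9) against 10.1 CPM (8.92 to 11.3), had intervals that overlap. In cells without such a UMI the direction between the passages was as in all cells for each of the 7 genes past 2-fold. *Lum* and *Fmod* had 0 UMIs in these PC20 cells.

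Genes that act on or with SLRPs were read from lists by role, over every listed gene with more than 3 UMIs in either library, for which the shares over all genes are the 27.4% and 19.8% above. Of 25 enzymes that build the glycosaminoglycan linker and the chondroitin or dermatan sulphate chains of *Dcn* and *Bgn*, 15 were more than 2-fold higher in PC5, 3 were higher in PC20 and 7 were within 2-fold, with a median log2 ratio of 1.40. *Dse*, which turns chondroitin into dermatan sulphate, was at 50.8 CPM in PC5 against 20.5 CPM in PC20 (log2 1.31), *Chpf*, which lengthens the chain, 44.6 and 11.4 CPM (1.97), and *Fam20b*, the xylose kinase of the linker, 28.4 and 10.8 CPM (1.40). *Papss1*, which makes the sulphate donor, was higher in PC20, at 35.2 and 75.7 CPM (-1.10). Of 8 enzymes of keratan sulphate and tyrosine sulphation, 5 were higher in PC5 and 0 in PC20 past 2-fold, with *B4galt1* at 76.7 and 21.6 CPM, *Tpst1*, a tyrosine sulphotransferase, at 45.7 and 11.3 CPM, *Chst2* at 28.9 and 5.08 CPM, and *Tpst2* at 33.2 and 35.1 CPM.

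Of 13 collagens of fibrils or bound by SLRPs, 11 were higher in PC5 and 0 in PC20 past 2-fold, with a median log2 ratio of 2.78. *Col1a2* was at 1737 CPM in PC5 and had 9 UMIs in PC20, and its partner *Col1a1* was at 576 and 6.04 CPM. *Col3a1* was at 1158 and 101 CPM, and *Col5a1*, which starts fibrils, at 164 and 65.0 CPM. Of 14 proteases that process or cleave SLRPs or the helpers of such proteases, 7 were higher in PC5, 3 in PC20 and 4 within 2-fold, with a median log2 ratio of 1.57. *Adamts1* was at 142 and 32.0 CPM (log2 2.15) and *Mmp14* at 108 and 74.9 CPM (0.53), while *Pcolce*, an enhancer of procollagen processing, at 50.01 and 136 CPM (-1.45) and *Htra1* at 91.3 and 205 CPM (-1.17) were higher in PC20. Of 23 receptors and growth factors that SLRPs bind, 10 were higher in PC5, 4 in PC20 and 9 within 2-fold, for a median log2 ratio of 0.23; the share higher in PC20 was near that over all genes. *Tgfbr2*, the TGF-β receptor, was at 268 and 29.7 CPM, *Ccn2* at 238 and 5.37 CPM, *Cd44* at 351 and 105 CPM and the uptake receptor *Lrp1* at 336 and 110 CPM.

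**Figure D4:**
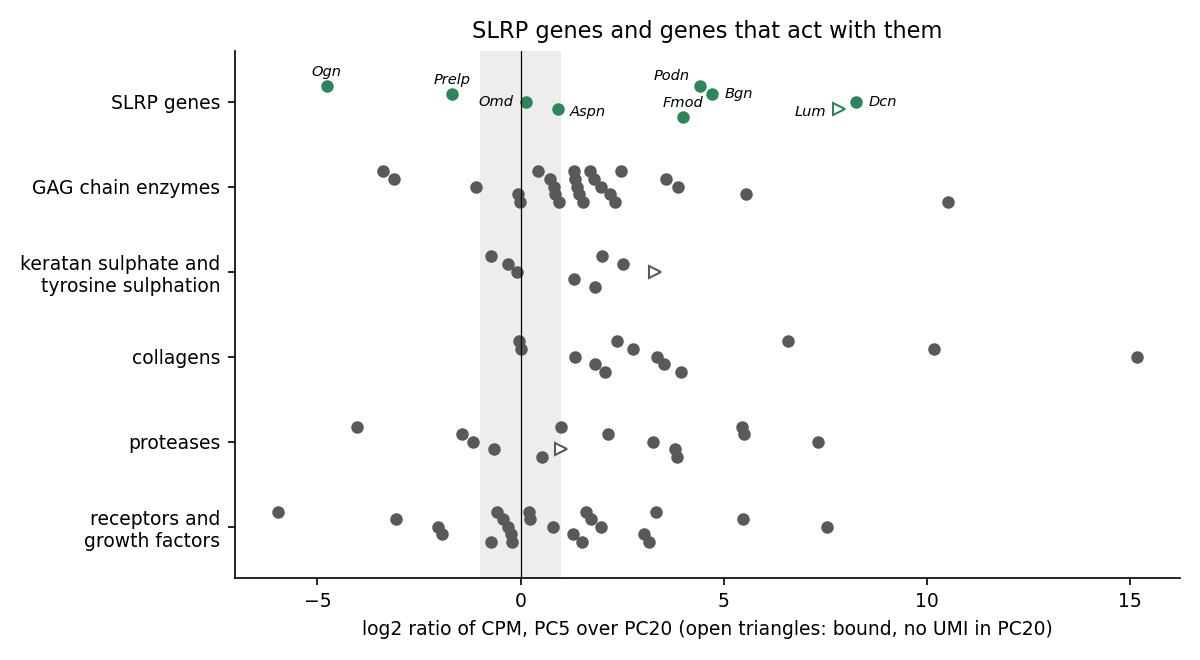
log2 ratio of CPM, PC5 over PC20, for the 9 SLRP genes (green) and for genes of 5 lists with more than 3 UMIs in either library (grey), with the band within 2-fold shaded and open triangles for genes without a UMI in PC20, set against 3 UMIs. The SLRP genes span from -4.77 for *Ogn* to 8.26 for *Dcn*, and 11 of the 13 collagens lie above 1 and none below -1.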

How the data were processed

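The authors mapped 10x 3′ reads (kit v3.1) to mm10 with Cell Ranger 5.0 per the labels (5.0.1 per the file headers) and deposited raw UMI counts per gene and called cell barcode, without normalization. Cells were filtered as in the methods of the study. UMIs were summed per library, and CPM, log2 ratios without a pseudocount and intervals were computed in Python 3.11.15 with scipy 1.17.1. A gene at 0 in a library was set against 3 UMIs. Thinning drew 10500 UMIs per cell without replacement, set from the 10th percentile of UMIs per cell, lowered to the next step of 500. Clusters came from Seurat 5.3.0 with 2000 variable genes, regression of mitochondrial and ribosomal percentages, 15 dimensions and resolution 0.8. No doublets were removed, and an alternative left out the 5% of cells with the most UMIs. The computation was tested on simulated counts.

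The SLRP genes, the lists and the settings were chosen with earlier results of these data known. The genes named are the 9 SLRP genes, the up to 4 genes of a list with the most UMIs, the 3 genes most correlated with a SLRP and the 3 leading genes of a described cluster, taken by ratio to the other cells among genes in at least 25% of its cells. The other family genes, the PC, epithelial and collagen genes beside the 98 *Bgn* cells and *Gm15851* were named after their values were seen. The remaining marker lists were read too. Smooth muscle markers summed to 283 CPM in PC5 and 49.6 CPM in PC20, and endothelial to 13.6 and 0.235. *Kdr* made up 12.8 CPM of the endothelial sum in PC5, so that sum does not stand for each of its genes. Microglial markers summed to 0.525 and 0.0157, oligodendrocyte to 0.915 and 0.895, and astrocyte to 151 and 229. The astrocyte sum does not stand for each of its 4 genes. Of these 3 were more than 2-fold higher in PC5, 0 in PC20 and 1 within 2-fold, beside 27.4% and 19.8% over all genes.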

Additional observations from a re-analysis of the deposited data

How the results depend on the processing

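Each of the 7 genes past 2-fold kept its direction and stayed past 2-fold under all 8 alternatives of cell filter, depth, cycling cells, scaling and doublets. The log2 ratio ranged from 8.12 to 8.51 for *Dcn*, 4.37 to 4.75 for *Bgn*, -5.32 to -4.53 for *Ogn* and -1.68 to -1.35 for *Prelp*. It ranged from 3.88 to 4.56 for *Podn* and 2.49 to 6.02 for *Fmod*, whose PC20 count was 4. The low end for *Fmod*, in cells without *Mki67* or *Top2a* UMIs, had no PC20 UMI left and was set against 3 UMIs. The log2 ratio of *Lum*, set against 3 UMIs, ranged from 5.80 to 7.99. *Aspn* stayed within 2-fold, and *Omd* also changed sign in 2 of 8. The summed SLRP level had a log2 ratio of 2.56, and of 2.63 in thinned cells, 2.09 in cells without *Mki67* or *Top2a* UMIs, 2.61 without the 5% deepest cells, 2.66 as a mean over cells and 2.60 when centred on the median gene. Among genes seen in 10% of cells of either library the number higher in PC5 was 2 in place of 5. The number of SLRP pairs with r of at least 0.1 was 0 in each passage. It was 2 in PC5 and 2 in PC20 with genes in 1% of cells, a cut without a computed share over all gene pairs. Without thinning it was 1 in PC20, *Ogn* with *Prelp* at r of 0.27, where both genes pass 10% of the deeper cells. The cluster richest in *Bgn* in PC20 held 64.9% of its UMIs, 80.5% at resolution 0.4, where clusters are fewer, and 70.1% without the regression, where the cause was not tested. No paired analysis was possible because each passage has 1 library. *Aspn* and *Fmod* had only 10 and 4 UMIs in PC20, so their ratios had wide intervals.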
